A study of Danio rerio with 30 samples.

Results

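The pancreatic digestive enzyme genes described here are prss1, prss59.1, prss59.2, ctrb.3, ela2, ela3l, cpa5, cpb1, amy2a and sycn.2, read in the heads of young zebrafish with and without a knockdown of grb10a. They are a list of 10 symbols, of which all 10 were measured, out of 19260 named genes on the array. The genes were chosen by earlier results of these data, namely by signals far lower in knockdown than in control heads at 5 dpf (days after fertilisation). The difference at 5 dpf and the high level of the 5 dpf controls are therefore given as a description with no test. The tests concern 10, 15, 20 and 30 dpf. The higher signals in knockdown at 15 dpf were also known for some of the genes when the list was made, so the counts at that age are no independent support for it.

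Acinar cells of the exocrine pancreas make digestive enzymes, store them in zymogen granules and release them through a duct into the gut. Trypsins, chymotrypsins, elastases and carboxypeptidases are made as inactive precursors, and trypsin activates the other precursors in the gut lumen, while amylase is made in active form. In zebrafish larvae these messages are known from the exocrine pancreas, which lies in the trunk beside the intestine and behind the gills.

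The knockdown (KD) groups were AB strain fish injected once into the yolk as early embryos with a morpholino that blocks splicing of grb10a, which codes for an adaptor of the receptors for insulin and its related growth factors. The standard control (SC) groups received a morpholino directed at human beta-globin. Fish of either treatment were taken at 5, 10, 15, 20 and 30 dpf, and both injection solutions also held phenol red and mRNA for nCerulean, a blue fluorescent protein, by which embryos were screened. By the series design the KD morpholino covers the donor site of coding exon 3; a second one, at exon 4, appears in the treatment notes only, and exon 3 is taken here as the site. Each array held RNA from 1 pool of 5 fish, with 3 pools a group and 30 arrays in all, and a morpholino is diluted as cells divide, which limits the knockdown as a model at the older ages. The comparison of KD with SC at each age asks which transcripts of the tissue in front of the gills depend on grb10a during early growth.

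The deposited values are log2 signals, and the median of an array lay between 5.51 and 5.63. The lowest 33.3% of genes had mean signals under 6.06, and this is used as a background limit in place of measured background, so that a difference to or from a level below it is a lower limit. For grb10a the KD mean was 9.11 ± 0.16 and the SC mean 8.10 ± 0.10 at 5 dpf (SD, n = 3 each), with differences of -0.24 to 0.33 at the older ages. A splice blocker need not lower the total signal of its target, and the probe set is no check of the labels. Markers of retina and brain were bright in all 10 groups, with list means of 9.33 to 10.45 over 6 retina genes and 8.65 to 9.23 over 8 brain genes. The mean of 6 pituitary genes, also of the head, was 5.2 to 5.83 and under the background limit on every array. Markers of liver and intestine, organs of the trunk, were above the background limit as list means in SC at 5 dpf, where both lists were brightest. In the other groups the intestine mean was under the limit on every array. The liver mean was under it on all but a few KD arrays of 5, 20 and 30 dpf. At 5 dpf the mean of 19 liver genes was 4.91 to 6.08 in KD and 8.71 to 9.03 in SC, and that of 16 intestine genes was 5.19 to 5.54 in KD and 7.35 to 7.43 in SC. Both lists were lower in KD at 5 dpf, as the enzyme genes were. The mean of 12 kidney genes was 5.73 to 5.91 in KD and 6.48 to 6.53 in SC, with a median difference of -0.22. That of 5 heart genes was 5.46 to 6.07 in KD and 6.65 to 6.77 in SC, with a median difference of -0.68. The mean of 2 swim bladder genes, near the background limit in both, was 5.87 to 6.18 in KD and 5.98 to 6.28 in SC. The part of these organs in the results was not tested.

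At 5 dpf all 10 enzyme genes were far lower in KD heads. In each of them the 3 KD arrays lay below the 3 SC arrays, as did those of 13.6% of all genes, and all 10 were at least 16-fold lower, as were 38 genes or 0.197% of all genes. In RNA from a whole tissue, fewer cells of a type and less RNA per cell cannot be told apart.

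The 3 trypsin genes code for proteases that cut after lysine and arginine and activate the other precursors. The signals of prss59.1 were 7.10, 7.11 and 6.42 in KD, against 13.33, 13.26 and 13.23 in SC. Its partner prss59.2, the adjacent gene in the RefSeq annotation, gave 7.58, 6.80 and 6.72 in KD, against 13.18, 13.17 and 13.30 in SC. For prss1 they were 6.51, 5.41 and 5.21 in KD and 11.55, 11.36 and 11.35 in SC. The SC arrays thus differed little among themselves, while the KD arrays of each trypsin gene spread more widely and lay nowhere near them. The KD minus SC differences were -6.39 (SE 0.61) for prss59.1, -6.18 (SE 0.64) for prss59.2 and -5.71 (SE 0.52) for prss1, which is 84.1-fold, 72.7-fold and at least 52.2-fold lower in KD.

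Chymotrypsin cuts after large hydrophobic residues, and its gene ctrb.3 had signals of 6.15, 6.32 and 5.48 in KD, against 12.28, 12.25 and 12.12 in SC. The difference was -6.24 (SE 0.46). Elastases cut elastic fibres and other proteins. The elastase gene ela3l gave 6.99, 6.40 and 6.27 in KD, against 12.68, 12.25 and 12.42 in SC, a difference of -5.90 (SE 0.42). For ela2 the signals were 6.14, 5.73 and 5.14 in KD and 11.41, 11.27 and 11.37 in SC, a difference of -5.68 (SE 0.35). For all 3 genes the KD arrays sat near the background limit and the SC arrays far above it.

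Carboxypeptidases trim amino acids from the end of a peptide, type A mostly hydrophobic ones and type B lysine and arginine. The type A gene cpa5 had 7.13, 6.11 and 6.07 in KD, against 12.79, 12.72 and 12.66 in SC, and differed by -6.29 (SE 0.44). The type B gene cpb1 had 5.31, 5.82 and 5.76 in KD, against 11.51, 11.28 and 11.07 in SC, and differed by -5.66 (SE 0.36). KD replicate 1 was the highest KD array for cpa5 and the lowest for cpb1. Over the 10 genes KD replicate 1 was the highest KD array for 7 and the lowest for 1. KD replicate 3 was the lowest for 9, so most but not all of the genes shared an order of arrays within KD.

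The amylase gene amy2a codes for the enzyme that cleaves starch. It gave 5.52, 5.09 and 4.84 in KD, against 10.94, 10.61 and 10.86 in SC, a difference of -5.65 (SE 0.38). Syncollin, known from rat as a protein of the zymogen granule membrane, is not an enzyme, and sycn.2 is listed as a non-coding RNA in the RefSeq annotation used here. Its signals were 4.02, 3.66 and 3.64 in KD, against 8.04, 8.01 and 7.72 in SC, a difference of -4.15 (SE 0.16). Both genes, like cpb1, had every KD array under the background limit. The KD means of prss1 (5.71), ela2 (5.67) and ctrb.3 (5.98) were under it too. The 5 dpf differences of all these genes are therefore lower limits. The plot of signals by age shows that the SC groups of the other ages did not come near the SC level of 5 dpf for any of the 10 genes.

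**Figure D1:**
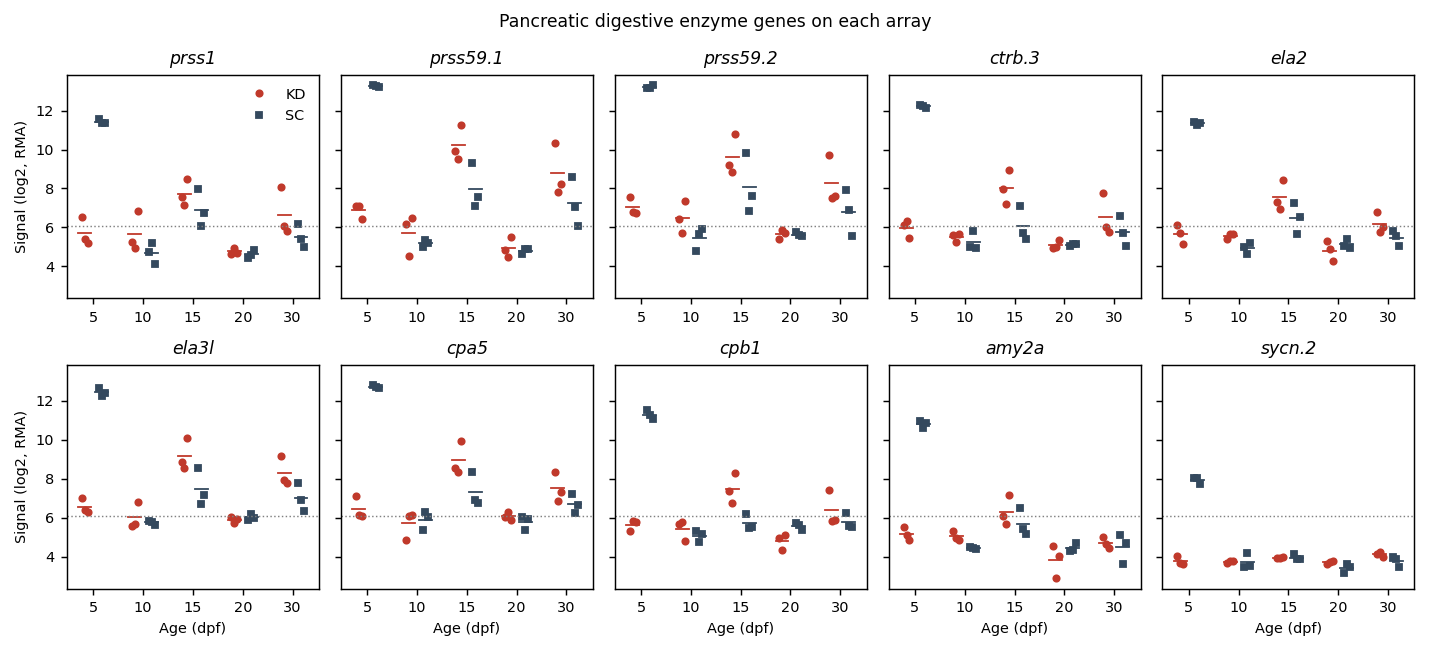
Signal (log2, RMA) of each of the 10 genes on every array, by age in dpf; circles are KD pools, squares are SC pools, short lines are group means and the dotted line is the background limit of 6.06. The SC arrays at 5 dpf stand alone at the top in every panel. Both treatments are low at 10 and 20 dpf and higher at 15 and 30 dpf in most panels, though several SC means of 30 dpf are under the dotted line.

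At 10 dpf none of the 10 genes passed the test in either direction (limma, adjusted p of at least 0.355, where 1.76% of all genes passed as higher and 0.914% as lower), and none had an unadjusted p under 0.05. For prss59.1 the signals were 6.17, 4.53 and 6.50 in KD, against 4.99, 5.35 and 5.2 in SC. The KD arrays of prss1 were 5.26, 4.94 and 6.86, against 4.76, 5.22 and 4.14 in SC. In both genes the groups overlapped, and KD replicate 3 was the highest array. The differences of the 10 genes ran from -0.20 for cpa5 to 1.05 for prss59.2, with a median of 0.45 against 0.04 over all genes. The KD arrays lay above the SC arrays for ela2, with 5.38, 5.64 and 5.68 in KD against 4.98, 4.61 and 5.18 in SC, and for amy2a, with 5.32, 4.96 and 4.85 in KD against 4.49, 4.46 and 4.41 in SC. These 2 of 10 stand beside 8.50% of all genes, and both genes were under the background limit on all 6 arrays. With an SE of 0.16 to 0.64, the 95% intervals of the differences reached up to 2.35 for prss59.2 and 2.05 for prss1, so differences of that size lie within the error.

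At 15 dpf the group means stood in the opposite order to that at 5 dpf for 9 of the 10 genes, all but sycn.2. Of the 10 genes 6 passed the test as higher in KD heads, against 9.18% of all genes. The 6 were prss59.1, ctrb.3, ela2, ela3l, cpa5 and cpb1, and none of the 10 passed as lower, against 2.84% of all genes. The 6 calls are not independent of each other, since the genes largely shared the same order of pools at this age. The median difference of the 10 genes was 1.58, against 0.08 over all genes. With a second quantile normalization 4.93% of all genes passed as higher and 4.83% as lower, and 5 of the 10 genes were called. With median centring of each array 13.2% passed as higher and 1.84% as lower, and all 6 were called.

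Among the trypsin genes, prss59.1 gave 9.93, 9.51 and 11.26 in KD at 15 dpf, against 9.32, 7.08 and 7.58 in SC. The groups did not overlap, but SC replicate 1 lay only just under KD replicate 2. The difference was 2.24 (SE 0.61, limma adjusted p = 0.0182), or 4.73-fold. The signals of prss59.2 were 9.23, 8.84 and 10.82 in KD and 9.82, 6.85 and 7.59 in SC, where SC replicate 1 lay above 2 of the KD arrays. Its difference of 1.54 (SE 0.64) did not pass (adjusted p = 0.114). For prss1 the signals were 7.55, 7.17 and 8.51 in KD and 7.98, 6.05 and 6.73 in SC, again with SC replicate 1 inside the KD range, and the difference was 0.82 (SE 0.52, adjusted p = 0.325). Without SC replicate 1 the differences were 2.91 for prss59.1, 2.41 for prss59.2 and 1.36 for prss1, and prss59.2 then passed.

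The chymotrypsin gene ctrb.3 had 7.98, 7.20 and 8.94 in KD, against 7.11, 5.71 and 5.39 in SC. The KD arrays lay above all SC arrays, by a narrow margin between KD replicate 2 and SC replicate 1, and the gene rose by 1.97 (SE 0.46, adjusted p = 0.00606), or 3.91-fold. The elastase gene ela3l gave 8.87, 8.57 and 10.09 in KD, against 8.53, 6.70 and 7.17 in SC, also without overlap, and rose by 1.71 (SE 0.42, adjusted p = 0.00986). For ela2 the signals were 7.31, 6.97 and 8.44 in KD, against 7.24, 5.67 and 6.56 in SC, and the groups overlapped. Its difference of 1.08 (SE 0.35, adjusted p = 0.045) stood just past the threshold and missed it under 10 of 16 alternatives.

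The carboxypeptidase gene cpb1 had the smallest adjusted p of the 10 genes at 15 dpf. Its signals were 7.39, 6.77 and 8.29 in KD, against 6.17, 5.47 and 5.53 in SC, a clear gap between the groups. The rise was 1.76 (SE 0.36, adjusted p = 0.00227), at least 3.38-fold, since the SC mean of 5.72 was under the background limit, and it passed under all 16 alternatives. For cpa5 the signals were 8.56, 8.32 and 9.95 in KD, against 8.35, 6.93 and 6.73 in SC, where SC replicate 1 lay just above KD replicate 2, and the difference was 1.61 (SE 0.44, adjusted p = 0.0183). The remaining genes did not pass. The signals of amy2a were 6.07, 5.67 and 7.15 in KD and 6.48, 5.39 and 5.17 in SC, a difference of 0.62 (SE 0.38, adjusted p = 0.307). For sycn.2 they were 3.92, 3.92 and 3.96 in KD and 4.14, 3.85 and 3.85 in SC, a difference of -0.01 (SE 0.16) at a level where no signal above background can be claimed.

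The 4 genes without overlap at 15 dpf, prss59.1, ctrb.3, ela3l and cpb1, stand beside 21.3% of all genes with KD arrays above SC arrays. The count of 6 rested on single arrays: it was 2 without SC replicate 2, 3 without SC replicate 3 and 2 without KD replicate 3. With only the 6 arrays of 15 dpf in the fit it was 1, cpb1. Each SE is pooled over all 10 groups, which spread unequally. For prss59.1 the SD ran from 0.05 in SC at 5 dpf to 1.35 in KD at 30 dpf. At 15 dpf it was 0.91 in KD and 1.18 in SC, and it was 0.87 and 0.92 for ctrb.3 and 0.80 and 0.95 for ela3l. For these genes the SE given at 15 dpf is smaller than the 6 arrays alone would give. The plot of differences by age sets the estimates of 15 dpf beside those of the other ages.

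**Figure D2:**
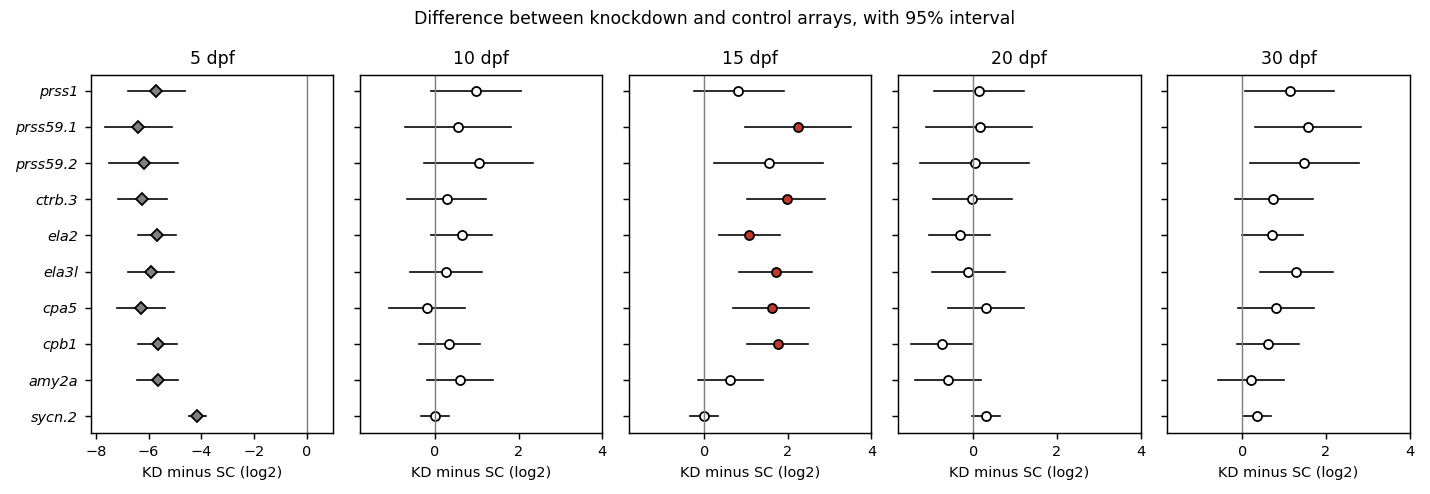
Difference in signal, KD minus SC (log2), of each gene at each age with its 95% interval; filled circles passed the limma test at an adjusted p under 0.05, open circles did not, and the grey diamonds at 5 dpf are a description with no test and have an axis of their own. The 6 filled circles are all at 15 dpf, and all 10 estimates at 30 dpf lie above 0.

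At 20 dpf the 10 genes were back near or under the background limit in both treatments, and none passed the test in either direction (adjusted p of at least 0.171, where 10.2% of all genes passed as higher and 4.31% as lower). The signals of prss59.1 were 4.86, 4.46 and 5.51 in KD, against 4.63, 4.88 and 4.88 in SC, its lowest levels of the series. Those of ela3l were 6.05, 5.71 and 5.94 in KD, against 5.88, 6.18 and 6.0 in SC. In both genes the groups overlapped. The lowest difference was that of cpb1, with 4.97, 4.35 and 5.13 in KD against 5.73, 5.6 and 5.36 in SC and no overlap, at -0.75 (SE 0.36, unadjusted p = 0.0454, adjusted p = 0.171). It passed only where the arrays of 20 dpf were fitted alone. For sycn.2 the KD arrays of 3.64, 3.71 and 3.77 lay above the SC arrays of 3.13, 3.61 and 3.47, a difference of 0.30 (SE 0.16) far under the background limit. These 2 genes without overlap, 1 each way, stand beside 20.7% of all genes with KD above SC and 16.8% with KD below SC. The median difference of the 10 genes was 0.01, against -0.01 over all genes.

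At 30 dpf, with all arrays in the fit, the 10 differences were above 0, from 0.21 for amy2a to 1.56 for prss59.1 with a median of 0.77 against -0.04 over all genes, but none passed the test (limma; 0.363% of all genes passed as higher and 0.639% as lower). The unadjusted p was under 0.05 for prss1, prss59.1, prss59.2, ela3l and sycn.2, and the adjusted p was 0.184 or more for all 10. The signals of prss59.1 were 10.33, 7.80 and 8.25 in KD, against 8.58, 7.05 and 6.06 in SC, where SC replicate 1 lay above 2 of the KD arrays. Those of prss59.2 were 9.72, 7.52 and 7.62 in KD, against 7.93, 6.91 and 5.57 in SC. The elastase gene ela3l had 9.18, 7.93 and 7.76 in KD, against 7.79, 6.88 and 6.34 in SC, a difference of 1.28 (SE 0.42, adjusted p = 0.184), and its groups overlapped by KD replicate 3 alone. The KD arrays lay above the SC arrays for 1 gene, sycn.2, with 4.13, 4.21 and 3.99 in KD against 3.97, 3.88 and 3.44 in SC, beside 6.91% of all genes.

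KD replicate 1 carried much of the difference at 30 dpf. For prss1 it stood at 8.07 beside 6.07 and 5.81 in the other KD pools and 6.16, 5.41 and 4.99 in SC, and the difference was 1.13 with all arrays and 0.42 without it. For ctrb.3 the KD arrays were 7.78, 6.04 and 5.77 and the SC arrays 6.60, 5.72 and 5.05, with a difference of 0.74 with KD replicate 1 and 0.12 without it. The genes ela2, cpa5 and cpb1 differed by 0.71, 0.80 and 0.61, and by 0.41, 0.38 and 0.10 without KD replicate 1. Without that array the difference was 0.80 for prss59.1, 0.77 for prss59.2 and 0.84 for ela3l. Without SC replicate 3 it was 0.98 for prss59.1 and 0.87 for prss59.2. For amy2a it was 0.05 without KD replicate 1 and -0.22 without SC replicate 2, so the sign of amy2a rested on single arrays. None of the 10 genes passed with any array of 30 dpf left out.

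At 15 and 30 dpf the 10 genes largely shared 1 order of pools within a group. At 15 dpf SC replicate 1 was the highest SC array for 10 of 10 genes, KD replicate 3 the highest KD array for 10 of 10 and KD replicate 2 the lowest for 10 of 10. At 30 dpf KD replicate 1 was the highest KD array for 9 of 10 genes, with sycn.2 as the exception, and SC replicate 1 the highest SC array for 10 of 10. At 10 and 20 dpf, near background, there was no such shared order in SC or in KD at 20 dpf, where no array was the highest for more than 5 of the 10 genes, and KD replicate 3 of 10 dpf was the highest for 7. The mean over the 10 genes was 7.68, 7.29 and 8.74 in KD at 15 dpf, against 7.51, 5.97 and 6.23 in SC. At 30 dpf it was 7.68, 6.27 and 6.29 in KD, against 6.54, 5.69 and 5.34 in SC. At 15 dpf the KD arrays held 1 to 2 of the 10 genes under the background limit, against 1 to 6 in SC, and at 30 dpf 2 to 6 in KD, against 3 to 8 in SC. Over the 24 arrays of 10 to 30 dpf, the correlation of each gene with the mean standardised profile of the 10 was 0.98 for prss59.2, 0.97 for prss59.1, ela3l and ctrb.3, 0.81 for amy2a and 0.66 for sycn.2. With the group means taken out it was 0.95 for prss59.2 and 0.42 for sycn.2. These correlations describe arrays that share RNA pools, a normalization and, for each gene, its own part in the mean, and neighbouring paralogs such as prss59.1 and prss59.2 could share probe signal.

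**Figure D3:**
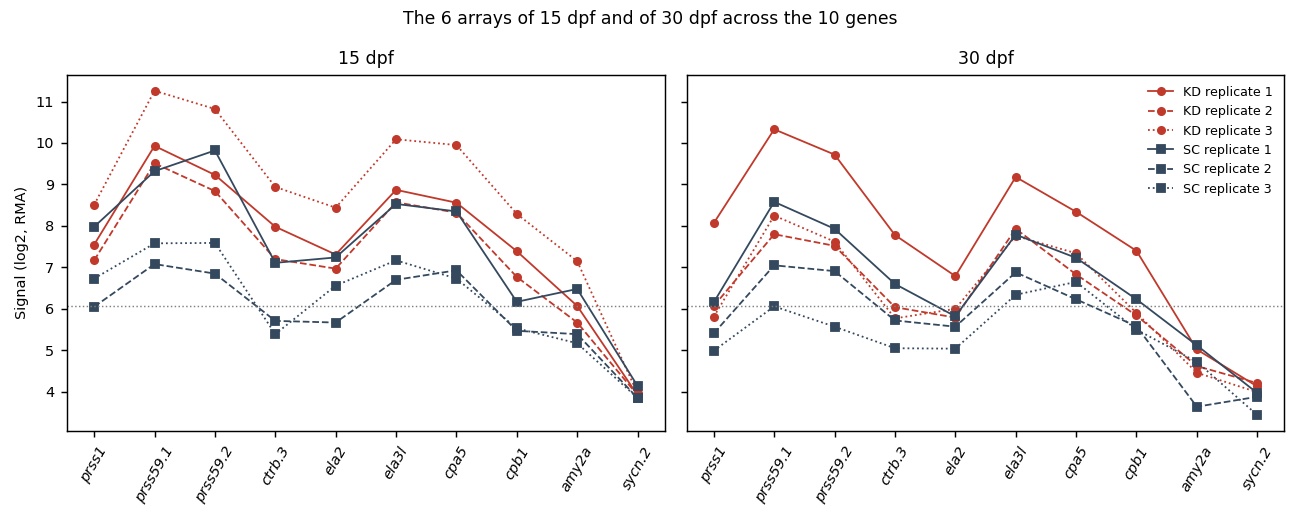
Signal (log2, RMA) of the 10 genes on each of the 6 arrays of 15 dpf and of 30 dpf, with 1 line per array (circles KD, squares SC; the line style gives the replicate) and the background limit of 6.06 dotted. The lines run nearly parallel: KD replicate 3 is on top at 15 dpf in all genes but sycn.2, KD replicate 1 at 30 dpf in all but amy2a and sycn.2, and SC replicate 1 lies close to the lower KD arrays in most genes.

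Between 10 and 30 dpf most of the genes were low at 10 and 20 dpf and had higher means at 15 and 30 dpf, in KD and in SC. In SC at 30 dpf, however, the means of prss1, ctrb.3, ela2, cpb1, amy2a and sycn.2 were under the background limit. The SC step from 10 to 30 dpf ran from 0.03 for sycn.2 to 2.05 for prss59.1. In KD 9 of the 10 genes varied with age over these 4 ages (F test of limma, all but sycn.2), where 51.6% of all genes did, and in SC 8 of the 10 varied (all but ctrb.3 and cpb1), where 56.5% of all genes did. This test does not say which ages differ. Both counts use the 15 dpf signals, known for some of the genes beforehand, and are no independent support for the list. For prss59.1 the group means at 10, 15, 20 and 30 dpf were 5.73, 10.23, 4.94 and 8.80 in KD, against 5.18, 7.99, 4.80 and 7.23 in SC. For ela3l they were 6.01, 9.17, 5.90 and 8.29 in KD, against 5.75, 7.46, 6.02 and 7.0 in SC. In both genes the 15 dpf level stood above the 30 dpf level, and 10 and 20 dpf lay at or under the background limit. The step from 10 to 15 dpf was 4.50 (SE 0.61) in KD and 2.81 (SE 0.61) in SC for prss59.1, and 3.17 and 1.72 (SE 0.42 each) for ela3l. For cpb1 it was 2.06 in KD and 0.65 in SC (SE 0.36 each). The SC count was 5 without SC replicate 1 of 15 dpf.

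The KD minus SC difference itself varied over 10 to 30 dpf for 1 of the 10 genes, cpb1 (F test of limma, adjusted p = 0.00559), where 21.2% of all genes did. Its differences were 0.34, 1.76, -0.75 and 0.61 at 10, 15, 20 and 30 dpf. The next smallest adjusted p-values were 0.0691 for ela3l and 0.0872 for ctrb.3. The count was 4 without SC replicate 1 of 15 dpf, 3 without KD replicate 2 of 15 dpf, and 2 without KD replicate 3 of 10 dpf or either replicate 1 of 30 dpf. For the other 9 genes this F test did not show that the difference depended on age. Each of the 6 pairs of ages was also tested. Between 15 and 20 dpf the difference changed for 4 of the 10, cpb1, ctrb.3, ela3l and ela2, where it did for 20.8% of all genes. This count and that of the F test use the 15 dpf signals, known for some of the genes beforehand, and are no independent support for the list. For the other 5 pairs none of the 10 passed. The share of all genes that passed was 11.1% between 10 and 15 dpf, where 4 of the 10 had an unadjusted p under 0.05 and the lowest adjusted p was 0.0617. It was 3.17% between 10 and 20 dpf (2 of the 10 with an unadjusted p under 0.05), 1.5% between 10 and 30 dpf (0 of the 10), 6.32% between 15 and 30 dpf (1 of the 10) and 7.56% between 20 and 30 dpf (3 of the 10).

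The order of the 10 groups was alike among the genes. SC at 5 dpf was the highest group for 10 of 10, without overlap with the next, and KD at 15 dpf came next for 9 of 10, the exception being sycn.2. KD at 30 dpf was in the place after that for 6 genes and SC at 15 dpf for 4. Below SC at 5 dpf, neighbours in the order overlapped, with 3 exceptions: a gap between SC at 30 dpf and KD at 20 dpf for prss1, between KD at 5 dpf and SC at 20 dpf for ela3l, and between KD and SC at 20 dpf for sycn.2. Even at their height the KD pools of 15 dpf stayed below SC at 5 dpf, by 8.21-fold for prss59.1, 9.69-fold for ela3l, 18.1-fold for ctrb.3 and 22.7-fold for amy2a. The SC pools of 15 dpf stayed below it by 38.8-fold for prss59.1, 31.7-fold for ela3l, 70.9-fold for ctrb.3 and at least 35.0-fold for amy2a. Levels are per probe set, so each fold is read within its own gene.

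Other genes of the exocrine pancreas were also lower in KD at 5 dpf. Of 38 listed genes 22 were measured, and at 5 dpf the KD arrays of 19 of them lay below the SC arrays, as did those of 13.6% of all genes, with a median difference of -2.10 against 0.02 over all genes. The protein disulfide isomerase gene pdia2, known from the pancreas, had 3.43, 3.41 and 3.95 in KD, against 7.80, 7.87 and 7.90 in SC. The elastase gene ela2l, next to ela2 in the annotation, had 6.02, 5.69 and 5.04 in KD, against 10.99, 10.90 and 10.87 in SC, and the carboxypeptidase genes cpa4 and cpa1 differed by -4.78 and -4.12. The genes pdia2, ela2l, cpa4 and cpa1 followed the 10 in being near or under the background limit in KD and above it in SC. Not all of the list did. The mean of ctrl was 8.25 in KD and 11.60 in SC, above the limit in both. That of amy2al1 was 4.76 in KD and 4.59 in SC, under it in both.

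At 15 dpf 4 of the 22 passed as higher in KD, against 9.18% of all genes, and none as lower, against 2.84%. The gene cpa1, next to cpa5 in the annotation, had 5.65, 5.62 and 6.54 in KD, against 4.76, 3.82 and 4.96 in SC, and rose by 1.42 (SE 0.29, adjusted p = 0.00227). The others were ela2l with a rise of 1.39 (SE 0.37), cpa4 with 1.15 (SE 0.28) and zgc:112285 with 1.06 (SE 0.24). The last of these had 7.56, 8.27 and 8.16 in KD and 8.12, 7.61 and 8.02 in SC at 5 dpf, an overlap unlike the gap of the 10 genes. At 15 dpf the means of cpa1 were under the background limit in both treatments, at 5.94 in KD and 4.51 in SC. The SC means of ela2l and cpa4, 6.05 and 5.42, were under it too. The median difference of the 22 genes at 15 dpf was 0.12, against 0.08 over all genes. At 20 dpf prss60.2 was higher in KD by 0.85 (SE 0.22, adjusted p = 0.00969) and cela1.6 lower, with 2.20, 2.70 and 2.81 in KD against 3.56, 4.07 and 4.13 in SC (adjusted p = 0.00219), all of it below the background limit. These calls, 1 of 22 each way, stand beside 10.2% of all genes that passed as higher and 4.31% as lower at 20 dpf. At 10 and 30 dpf none of the 22 passed. Over all genes 1.76% passed as higher and 0.914% as lower at 10 dpf, and 0.363% and 0.639% at 30 dpf.

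Of the transcription factors that acinar cells use, 5 were measured. At 5 dpf the KD arrays lay below the SC arrays for 4 of the 5, beside 13.6% of all genes. The differences of the 5 ran from -1.44 to -0.15, and the KD means of ptf1a, rbpjl and bhlha15 were under the background limit. The largest margin was in gata4, with 6.66, 6.37 and 6.01 in KD against 7.64, 7.83 and 7.89 in SC, a gene also used by heart, liver and gut. The factor rbpjl, which drives acinar enzyme genes, had 5.84, 5.97 and 5.15 in KD, against 6.63, 6.70 and 6.69 in SC. Its partner ptf1a stayed under the background limit in all 30 arrays, with 4.81 to 4.90 in KD and 4.83 to 5.1 in SC at 5 dpf. At 15 dpf none of the 5 passed, where 9.18% of all genes passed as higher and 2.84% as lower, and a list this short cannot be told apart from those shares. All 5 differences were below 0, from -0.43 to -0.01. The means of ptf1a, rbpjl and bhlha15 were under the background limit in both treatments. The only call at 10 to 30 dpf was bhlha15 at 10 dpf, lower by 0.53 in KD (SE 0.13, adjusted p = 0.0261). Over all genes 0.914% passed as lower at 10 dpf.

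Genes of the endocrine pancreas, whose islets lie within the same organ, did not pass at any age from 10 to 30 dpf (10 measured). Over all genes 0.363% to 10.2% passed as higher and 0.639% to 4.31% as lower at these ages. The list mean was under the background limit on all 24 arrays of 10 to 30 dpf, so the lack of calls says little about islets. At 5 dpf the KD arrays of 4 of the 10 lay below the SC arrays, beside 13.6% of all genes. The median difference was -0.20, and 3 of the 10 differences were above 0. The lowest difference, -1.20, was that of the insulin gene ins. It had 6.38, 5.35 and 6.05 in KD at 5 dpf, against 6.86, 7.22 and 7.30 in SC. The KD mean of 5.93 was under the background limit. The difference is therefore a lower limit, and its size cannot be set beside those of the enzyme genes. At 15 dpf ins had 5.83, 5.38 and 5.73 in KD, against 5.45, 5.66 and 5.45 in SC, under the background limit in both.

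At 15 dpf 1 of 19 liver genes and 1 of 16 intestine genes passed as higher in KD and none as lower. Over all genes 9.18% passed as higher and 2.84% as lower, and lists this short cannot be told apart from those shares. The median difference was 0.28 for liver and 0.12 for intestine, against 0.08 over all genes. The liver gene was apobb.1, the lipoprotein component, with 8.23, 7.87 and 9.64 in KD, against 7.64, 5.96 and 5.80 in SC, where KD replicate 3 and SC replicate 1 were again the highest of their groups. The intestine gene was chia.3, a chitinase, with 7.41, 6.99 and 8.07 in KD, against 6.94, 5.23 and 5.97 in SC, with the same 2 arrays on top. The liver list mean at 15 dpf was 5.59 to 5.98 in KD and 5.07 to 5.63 in SC, and the intestine list mean was 5.43 to 5.79 in KD and 5.12 to 5.46 in SC. At 30 dpf none of the liver or intestine genes passed, where 0.363% of all genes passed as higher and 0.639% as lower. The liver list mean at 30 dpf was 6.06, 5.49 and 5.32 in KD, against 5.33, 5.12 and 5.2 in SC, with KD replicate 1 on top as for the enzyme genes. The part of trunk tissue in the enzyme results was not tested.

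**Figure D4:**
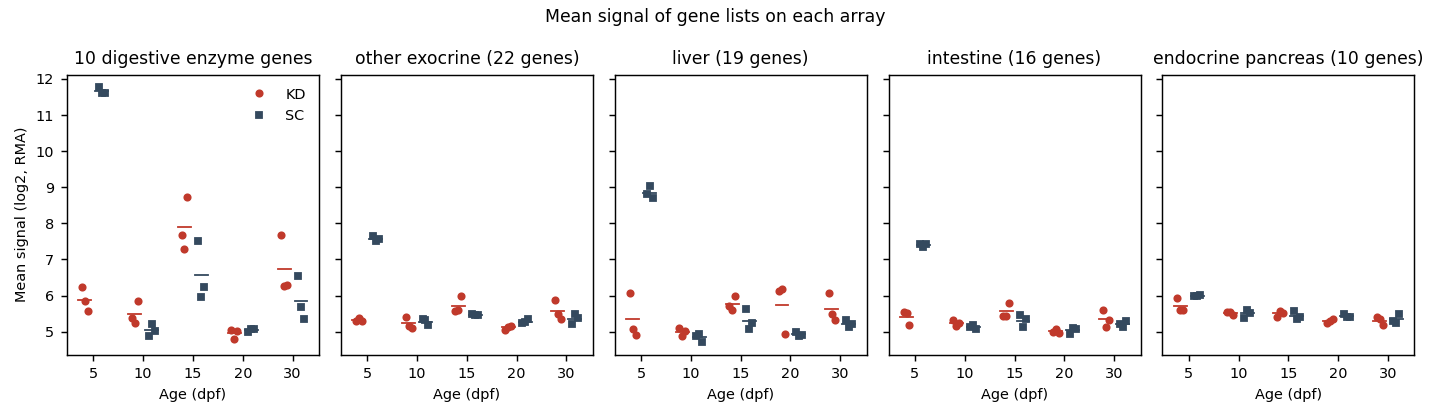
Mean signal (log2, RMA) on each array, by age in dpf, of the 10 digestive enzyme genes and of the lists of other exocrine pancreas, liver, intestine and endocrine pancreas genes (circles KD, squares SC, lines group means). SC at 5 dpf is the highest group in all 5 panels, by least for endocrine pancreas, and at 20 dpf the liver mean is high in 2 KD arrays while the enzyme mean is not.

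The genes whose signals followed the mean profile of the 10 most closely over the 24 arrays of 10 to 30 dpf were, outside the list, chia.3 with a correlation of 0.94, ela2l with 0.92, the apolipoprotein gene apoa1a with 0.89, the astacin protease gene c6ast4 with 0.89 and the sucrase-isomaltase gene si with 0.88. They were followed by the apolipoprotein gene apoea with 0.87, cpa4 with 0.86, the acyl-CoA synthetase gene acsl5 with 0.84, the intestinal fatty acid binding protein gene fabp2 with 0.82 and apobb.1 with 0.82. Clone-based symbols were passed over, and the correlations describe pools of 8 groups and carry no test. Of these 10 genes 8 passed as higher in KD at 15 dpf, where 9.18% of all genes did, with rises from 0.65 for si to 2.11 for apobb.1, and acsl5 and fabp2 did not pass. That the profile used the same arrays makes this count a description.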

How the data were processed

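RNA labelled with the GeneChip WT PLUS kit was hybridised to 30 ZebGene 1.0 ST arrays (Affymetrix), 3 arrays for each of 10 groups and 1 pool of 5 fish per array. The authors deposited a log2 signal for each probe set. RMA is named by the submitters' processing notes, and its version is not given in the sources used. The values run from 0.987 to 14.2 and were not normalized again. Of 75212 probe sets 20806 had 1 gene symbol, and 20323 of them were given the current symbol through the Entrez identifier; 855 had several symbols and 53551 had none, and neither entered the tests. Where a symbol had more than 1 probe set (1365 symbols) the brightest was used, which left 19260 genes. Each of the 10 enzyme genes had 1 such probe set. A probe set that ctrb.3 shares with ctrb.2 was not used. Gene names, neighbours and gene types are from the RefSeq table of GRCz12tu. Probe sequences were not used here.

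Tests used limma (version 3.58.1, R 4.3.3) with 1 mean per group over all 30 arrays, 20 residual and 6.05 prior degrees of freedom. All tests are two-sided, adjusted by Benjamini-Hochberg over the 19260 genes with a threshold of 0.05; "rose" and "fell" stand for adjusted p under that. Differences are KD minus SC. The number of arrays limits the precision, and p-values reflect the spread between pools, taken as 1 value per gene over all 10 groups. The test was checked on simulated data. Genes named were the 10 enzyme genes, grb10a, the 4 other exocrine genes with the smallest p at an age with any called the opposite way, the 10 most alike in pattern, and the brightest markers; single markers of liver, intestine, islets and transcription factors were named after their values were seen. The members and lists were chosen with earlier results of these data known. Alternatives were another variance model, no dim genes, 2 other normalizations, the mean of probe sets, array weights, the replicate number as a block, fewer groups in the fit, and leaving out single arrays. Leaving out 2 KD arrays at once was added after seeing the data. Python 3.11.15 with matplotlib 3.10.9 drew the figures.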

Additional observations from a re-analysis of the deposited data

Results flagged for a closer look

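For 4 of the 10 enzyme genes the difference between KD and SC was not the same at 20 dpf and at 15 dpf, by a test of that change itself (limma interaction, adjusted over all genes; 20.8% of all genes passed). It was 1 of 6 pairs of ages tested between 10 and 30 dpf. None of the 10 genes passed for the other 5 pairs (lowest adjusted p = 0.0617, between 10 and 15 dpf). The higher KD signals at 15 dpf were known for some of the genes when the list was made. The count of 4 is therefore no independent support for the list. Taken as the 20 dpf value less the 15 dpf value, the change in the KD minus SC difference was -2.50 for cpb1 (SE 0.50, adjusted p = 7.22e-04), -1.99 for ctrb.3 (SE 0.64, adjusted p = 0.0289), -1.83 for ela3l (SE 0.60, adjusted p = 0.0309) and -1.41 for ela2 (SE 0.50, adjusted p = 0.0453). The change was -2.10 for prss59.1 (SE 0.87, adjusted p = 0.088), the gene with the widest SE among these 5, and it did not pass. All of these genes were under or near the background limit in both treatments at 20 dpf, and the high arrays of 15 dpf, KD replicate 3 and SC replicate 1, entered each value. Each SE was pooled over all 10 groups, so it does not measure the spread at 15 dpf alone.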

How the results depend on the processing

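The counts of enzyme genes called were 0 at 10 and 30 dpf under all alternatives run, each array left out in turn included, and no call of an enzyme gene changed its direction. At 15 dpf the count of 6 was 1 with only the compared arrays in the fit, between 2 and 7 with 1 array left out (2 without SC replicate 2 or KD replicate 3, 3 without SC replicate 3) and 3 without KD replicate 3 of 15 dpf and KD replicate 1 of 30 dpf, a choice made after seeing the data. At 20 dpf the count of 0 was 1, cpb1 lower in KD, with only the compared arrays. The count of genes whose difference varied over 10 to 30 dpf was 1, and 2 without dim genes, with median centring, with array weights or with the replicate block, and 1 to 4 with 1 array left out. The count that varied with age was 8 in SC, 5 to 8 with 1 array left out and 5 without SC replicate 1 of 15 dpf, and 9 in KD, 8 to 10 under the alternatives. The causes were not tested. Leaving out dim genes removes amy2a and sycn.2. The limit was applied to the mean of all 30 arrays, the high SC arrays of 5 dpf included. Genes with means just above it, such as prss1 (6.37), ela2 (6.32) and cpb1 (6.31), were kept. This alternative is therefore no check of low signal at the older ages. The replicate numbers were not taken as pairs of pools. Over 15 pairs of same-numbered KD and SC arrays the deviations from group means correlated at -0.12 to 0.28. The 4 pairs over 0.1 were at 10 and 20 dpf. Arrays of unlike number were not compared, so these values cannot decide whether the pools were paired. Beyond the change given above the block changed no count. Over all genes, the calls at 10 dpf were 515, 105 to 1096 with 1 array left out and 0 with only the compared arrays. At 15 dpf they were 2316, 952 to 2715 and 694. At 20 dpf they were 2786, 1742 to 2256 with 1 array left out and 4787 with array weights, and at 30 dpf 193, 103 to 175 and 493. Signal near background limits what can be said of amy2a and sycn.2 after 5 dpf, and of all 10 genes at 10 and 20 dpf.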

Other observations

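At 20 dpf, markers of liver and heart were high in KD arrays in which the pancreatic enzyme genes were not. The liver list mean was 6.14, 6.17 and 4.94 in KD, against 4.98, 4.89 and 4.92 in SC, so KD replicates 1 and 2 stood apart from KD replicate 3. The mean of the 10 enzyme genes was 5.04, 4.81 and 5.03 in KD, against 4.99, 5.07 and 5.08 in SC. The heart list mean over 5 genes was 6.22, 6.51 and 5.70 in KD, against 5.2, 5.62 and 5.27 in SC, also highest in KD replicates 1 and 2. The heart myosin light chain gene myl7 rose by 1.70 (SE 0.50, limma adjusted p = 0.0207), the only one of the 5 to pass, where 10.2% of all genes passed as higher. The liver gene fetub, a secreted protease inhibitor, had 10.37, 10.36 and 5.61 in KD, against 4.84, 4.90 and 4.51 in SC, and rose by 4.02 (SE 1.01, limma adjusted p = 0.0071). Of the 19 liver genes 6 passed as higher in KD at 20 dpf, where 10.2% of all genes did. At 15 dpf, where 6 enzyme genes rose, fetub had 8.57, 7.78 and 9.15 in KD, against 7.90, 6.25 and 6.29 in SC, and did not pass (adjusted p = 0.293).

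The KD pools of 5 dpf also differed in liver markers. KD replicate 1 had 10.13 for fetub and 7.0 for apobb.1, against 4.54 and 5.42 for fetub and 5.1 and 4.90 for apobb.1 in KD replicates 2 and 3. There the enzyme mean was also highest in KD replicate 1, at 6.25, 5.85 and 5.56 in KD, against 11.77, 11.62 and 11.61 in SC, and 7 of the 10 genes had their highest KD signal in that array. The SC arrays of 5 dpf had 12.80 to 12.88 for fetub. What sets these single pools apart was not tested.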
